A study of Mus musculus with 11 samples.

Results

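The genes described here move lipid and cholesterol into, through and out of phagocytes. They are Apoe, which encodes a lipid-carrying apolipoprotein, the transporters Abca1, Abcg1 and Abca7, the lipase Lpl, the scavenger receptor Cd36, the fatty acid binding proteins Fabp4 and Fabp5, the lipid droplet protein Plin2, and Gpnmb, a glycoprotein made by lipid-loaded macrophages. They were taken by symbol from the deposited table of expression levels, where each symbol matched 1 row: 10 of 37583 genes, and all 10 were among the 15116 genes with enough reads to be tested. The symbols were not chosen by a measured threshold, although earlier results on the same libraries were known when the list was drawn up.

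The cells came from the mouse epididymis, the long duct in which sperm mature and are stored. All mice were CX3CR1 EGFP +/-, 12 weeks old and without any further treatment given in the labels. Green fluorescence is driven by the fractalkine receptor locus, so the sort takes every cell with an active Cx3cr1 locus and not a single cell type. EGFP+ mononuclear phagocytes were sorted from the initial segments (IS, the proximal end; 4 libraries), from caput and corpus together (3 libraries) and from the cauda (the distal end; 4 libraries), with 4 epididymides pooled per library. Every group thus shares genotype, age and sort, and the labels set them apart by region. Because the animals behind each library are not named, p-values measure the spread between these libraries, which may be partly technical.

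Phagocytes that clear cells or take up lipoproteins hydrolyse the lipid in lysosomes and then either store the cholesterol as esters in droplets or hand it on. Export runs through Abca1, which loads lipid-poor apolipoproteins, and Abcg1, which loads larger particles, and Apoe made by the same cell serves as an acceptor. The liver X receptors (LXR), nuclear receptors that sense oxidised cholesterol, switch on Apoe, Abca1, Abcg1 and Mylip in macrophages, while SREBP2 (Srebf2) switches on cholesterol synthesis when sterol is low.

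Abca1 and Apoe were the only members that passed the test described below as higher in IS than in cauda cells. The 250 bases before a RefSeq start of each gene are shown, both from build GRCm38.p6. These are reference sequences and not read from the libraries, and the deposited files, whose build is mm9, hold no measurement at these positions. The Abca1 stretch is chr4:53159896-53160145 and the Apoe stretch, before the most upstream of its 3 RefSeq starts, is chr7:19699189-19699438, each on the minus strand and written 5′ to 3′ in the direction of transcription.
Abca1: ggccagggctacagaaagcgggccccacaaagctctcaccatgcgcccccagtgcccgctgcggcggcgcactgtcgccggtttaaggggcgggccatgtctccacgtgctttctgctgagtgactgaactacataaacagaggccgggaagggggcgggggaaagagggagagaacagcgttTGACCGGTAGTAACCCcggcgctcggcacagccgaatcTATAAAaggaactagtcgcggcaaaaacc
Apoe: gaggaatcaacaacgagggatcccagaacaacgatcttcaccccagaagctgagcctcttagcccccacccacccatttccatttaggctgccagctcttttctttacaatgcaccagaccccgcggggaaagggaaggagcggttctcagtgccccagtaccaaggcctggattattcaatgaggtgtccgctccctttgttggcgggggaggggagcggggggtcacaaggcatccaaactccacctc
Capitals in Abca1 mark, in order, a match to the direct repeat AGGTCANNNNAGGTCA, the kind of site that LXR binds together with RXR, and the letters TATAAA. The repeat begins 67 bases before the start, lies on the opposite strand (read there as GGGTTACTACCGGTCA) and differs from the search pattern at 3 of its 12 half-site bases. TATAAA begins 29 bases before the start, and the matches do not overlap. The Apoe stretch held neither. The windows of the other 2 Apoe starts did not hold the repeat, and 1 of them held TATAAA, 96 bases before its start. Both strands of windows of 300 bases (250 before and 50 after a start) were searched. With up to 3 mismatches the repeat was in 1 of the 8 windows found for 6 members (Apoe, Abca1, Abca7, Gpnmb, Cd36, Plin2) and in 7189 of all 32851 RefSeq windows, or 21.9%, while TATAAA was in 13.6%. That tolerance was settled after the Abca1 match had been seen and after several other short motifs had been looked at, so the match is a description of letters only.

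The libraries held 16873180 to 31737132 reads on genes. Levels are RPKM as deposited, which are reads scaled to gene length and to the library's effective size. The per-sample count files and the named RPKM columns hold different reads for 3 of the 11 libraries (replicate 1 of both cauda and caput/corpus, and replicate 2 of IS), and the values here follow the named columns. The file under caput/corpus replicate 1 holds the reads of the IS replicate 2 column. The file under cauda replicate 1 holds those of the caput/corpus replicate 1 column. The column of cauda replicate 1 matched no count file and had reads on 13434 genes, against 17053 to 18837 in the other libraries. The titles fall into series Maj3 (IS replicates 1 and 2, caput/corpus replicate 1, cauda replicates 1 and 2) and Maj4 (the other 6 libraries). The regions are not balanced over them, since caput/corpus has 1 Maj3 and 2 Maj4 libraries while IS and cauda have 2 of each, and all 3 conflicting libraries are in Maj3. Without those 3, caput/corpus keeps only its 2 Maj4 libraries. The test was edgeR's quasi-likelihood test with the series as a covariate. A gene was called when its Benjamini-Hochberg adjusted p over all 15116 genes was under 0.05. Log2 fold changes are given ± SE.

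IS and cauda cells, the 2 ends of the duct, differed in 3 of the 10 genes. Apoe and Abca1 were higher in IS and Lpl was higher in cauda. Over all genes tested edgeR called 16.5%, of which 7.4% with the higher level in IS and 9.06% in cauda. The members' median log2 difference was 0.01 against 0.05 for all genes. As a set the members were thus not shifted one way: 5 had a positive and 5 a negative log2 difference. Without the 3 conflicting libraries Apoe and Abca1 were called and Lpl was not. With the reads as filed in the count files edgeR called 0 of the 10, with 2 at an unadjusted p under 0.05, and 4 genes in all. That fit takes the IS replicate 2 column as caput/corpus and the caput/corpus replicate 1 column as cauda. Summed epithelium markers, described below, were 2795 RPKM in the IS replicate 2 column and 1224 to 2104 in the other IS libraries. The caput/corpus replicate 1 column had 574, against 357 and 404 in the other caput/corpus libraries. The cauda replicate 1 column had 11.5, against 23.4 to 31.6 in the other cauda libraries. Which source carries the right region names was not tested.

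Between IS and caput/corpus edgeR called 0 of the 10 genes, with 4 at an unadjusted p under 0.05. All genes gave 3.78%, of which 0.794% with the higher level in IS and 2.98% in caput/corpus. Between caput/corpus and cauda 0 of the 10 were called, with 3 at an unadjusted p under 0.05, and all genes gave 0.615%, of which 0.582% with the higher level in caput/corpus and 0.0331% in cauda. The members' median log2 difference was -0.24 for IS minus caput/corpus (all genes 0.02) and 0.22 for caput/corpus minus cauda (all genes 0.02). The comparisons share libraries, so they are not independent of each other.

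**Figure D1:**
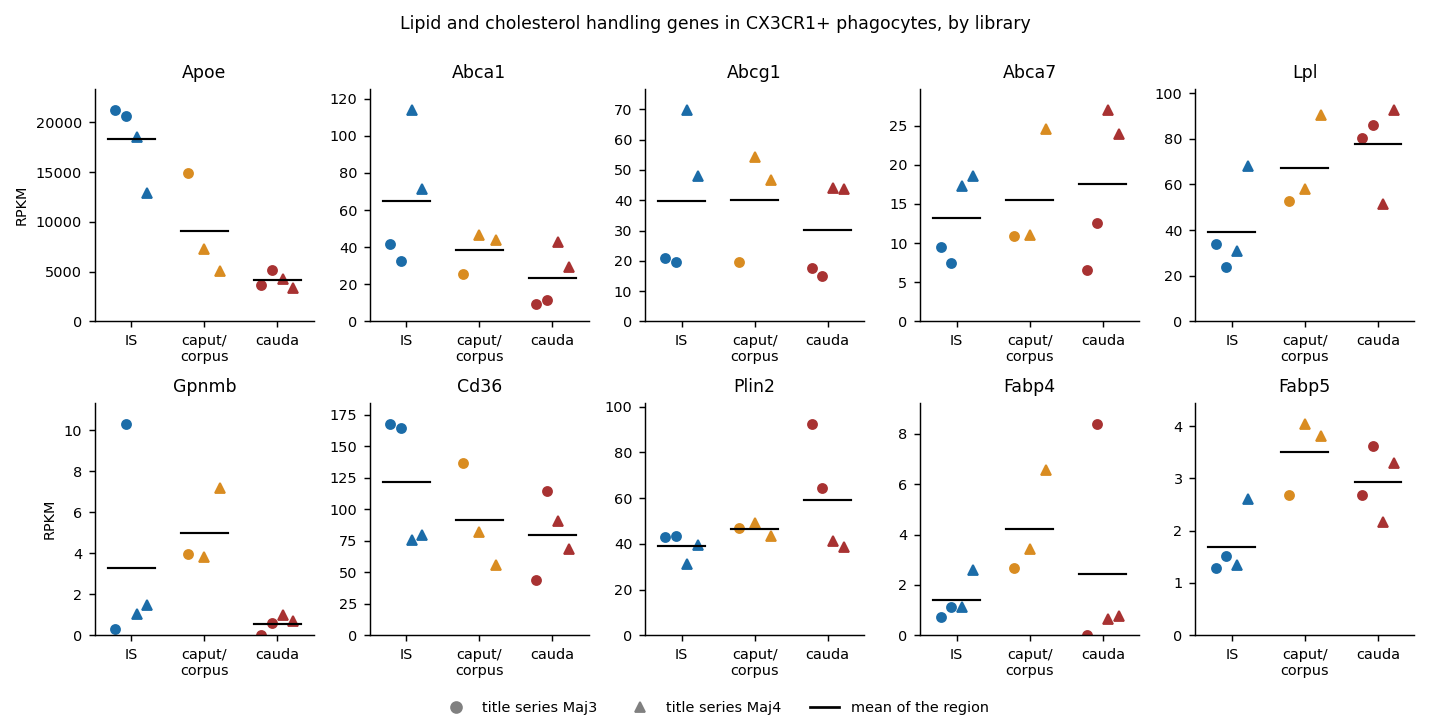
Each panel plots 1 gene's RPKM (vertical axis, from 0) in the 11 libraries by region, with circles for title series Maj3, triangles for Maj4 and a bar at the region's mean. Apoe runs from 12866 to 21232 in IS and from 3336 to 5193 in cauda without overlap, while Abcg1 separates by series, with every Maj3 library at or under 21.1 and every Maj4 library at or over 43.6.

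**Figure D2:**
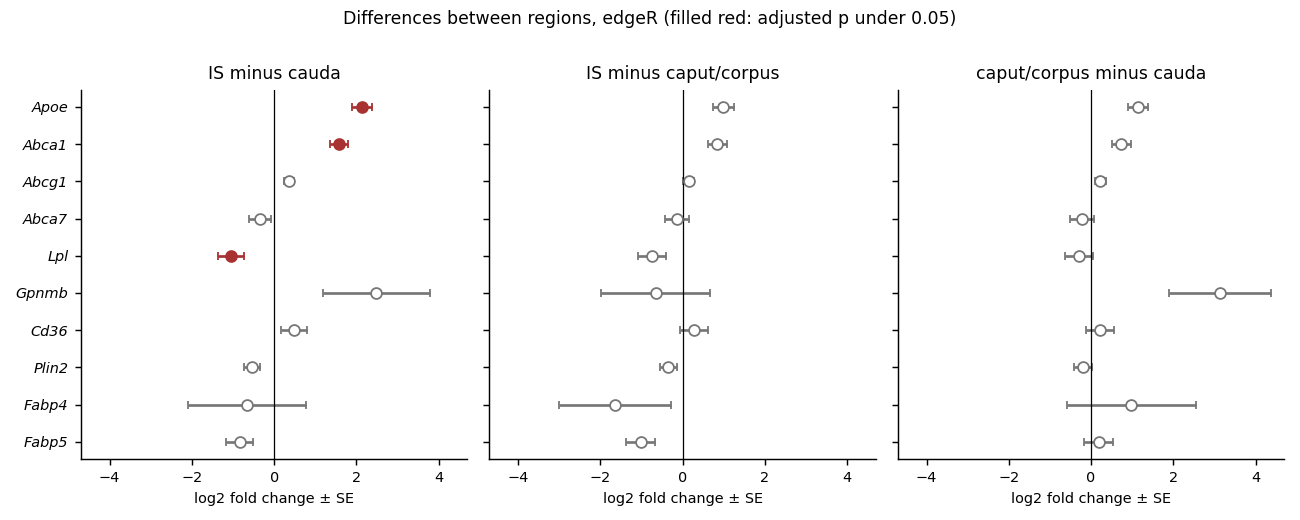
Points are edgeR log2 fold changes of the 10 genes with SE bars, 1 panel per comparison, filled red where the adjusted p was under 0.05. Only IS minus cauda has filled points: Apoe at 2.13, Abca1 at 1.58 and Lpl at -1.05.

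Apoe (ENSMUSG00000002985) carries cholesterol and phospholipid out of macrophages. Its RPKM was 21232, 20632, 18585 and 12866 in IS replicates 1 to 4. In caput/corpus it was 14948, 7291 and 5041 for replicates 1 to 3. In cauda it was 3691, 5193, 4267 and 3336 for replicates 1 to 4. Every IS library lay above every cauda library, while the caput/corpus libraries spread over both ranges: replicate 1 exceeded the lowest IS library and replicate 3 fell under the highest cauda library. The means were 18329 ± 3814 (SD, n = 4), 9093 ± 5193 (n = 3) and 4122 ± 811 (n = 4). This single transcript took 3.90% to 5.83% of all reads on genes in IS, 1.49% to 3.98% in caput/corpus and 0.951% to 1.34% in cauda. By mean RPKM it ranked 2nd of 15116 genes in IS, 4th in caput/corpus and 14th in cauda.

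Apoe was 4.38-fold higher in IS than in cauda, a log2 difference of 2.13 ± 0.24 (edgeR adjusted p = 0.000355). The ratio of mean RPKM was 4.71 within Maj3 and 4.14 within Maj4, and the log2 difference was 2.04 (edgeR adjusted p = 0.000326) over the 8 libraries whose sources match. It was called with each of the 11 libraries left out in turn, at log2 1.98 to 2.27. With the counts as filed it was 1.35 and not called (edgeR adjusted p = 0.178). Against caput/corpus the IS level was 0.99 ± 0.26 higher on the log2 scale, which was not called (edgeR adjusted p = 0.0663). That call turns on single libraries. It was made in 2 of the 11 fits that leave 1 library out. In the others the edgeR adjusted p reached 0.238, without caput/corpus replicate 2. With DESeq2 the difference was 1.03 and not called (adjusted p = 0.417). Without caput/corpus replicate 1 it was 1.39 (edgeR adjusted p = 0.0237) and without cauda replicate 1 0.99 (edgeR adjusted p = 0.0184). Over the 8 matching libraries it was 1.34 (edgeR adjusted p = 0.0112). There caput/corpus keeps only its Maj4 libraries, as in the fit without its replicate 1. Caput/corpus exceeded cauda by 1.14 ± 0.25, also not called (edgeR adjusted p = 0.0859), and by 0.70 over the 8 matching libraries (edgeR adjusted p = 0.291).

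Macrophage markers and markers of other cells moved with Apoe across the regions. Of the 11 macrophage markers, 8 were called higher in IS than in cauda and 0 lower. Their summed RPKM was 9313 to 14514 in IS, 6673 to 12567 in caput/corpus and 5909 to 8383 in cauda, with none at 0 reads and with C1qb, a complement subunit, at the highest level. Apoe divided by that sum, a ratio chosen after the levels had been seen, was 1.38 to 1.63 in IS, 0.755 to 1.19 in caput/corpus and 0.504 to 0.625 in cauda, 3 ranges that do not overlap. In bulk RNA, more cells of a type and more RNA per cell cannot be told apart.

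Dendritic cell and monocyte markers ran the other way: 10 of 12 were called higher in cauda, with sums of 277 to 546 in IS, 1274 to 1408 in caput/corpus and 1138 to 2084 in cauda (highest Cd209a, a lectin). Mast cell markers were called higher in cauda in 9 of 9, with sums of 26.2 to 99.4, 622 to 892 and 889 to 3473 (highest Tpsb2, a tryptase). Epididymal epithelium markers were called higher in IS in 13 of 18. Their sums were 1224 to 2795 in IS, 357 to 574 in caput/corpus and 11.5 to 31.6 in cauda, led by Gpx5, a glutathione peroxidase that the epithelium secretes. Fibroblast and smooth muscle markers (2 of 13 called higher in IS, highest Dcn) summed to 75.2 to 256, 22.9 to 130.4 and 11.3 to 37.5. Genes induced by tissue dissociation (14 of 16 called higher in cauda, highest Zfp36) summed to 3121 to 6944, 7320 to 10370 and 4665 to 12722. None of these lists had a marker at 0 reads in all libraries, and their part in the results for Apoe and the other members was not tested.

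Adipocyte markers, of interest because Lpl, Cd36 and Fabp4 are adipocyte genes, summed to 4.45 to 6.82 in IS, 0.792 to 4.04 in caput/corpus and 0.119 to 1.35 in cauda, with Plin1 and Lep at 0 reads throughout and Thrsp the highest. Thrsp alone gave 4.33 to 6.48 in IS, 0.340 to 2.44 in caput/corpus and 0 to 0.430 in cauda. Of the 10 adipocyte markers, 2 had enough reads to be tested, and 1 was called higher in IS than in cauda. Endothelial markers (highest Egfl7) summed to 5.15 to 16.0, 5.76 to 7.43 and 0.721 to 6.73. Sperm markers (highest Prm2) reached 1.60, 14.2 and 5.59. Lymphocyte markers (highest Cd79b) summed to 32.4 to 68.7, 58.7 to 96.2 and 39.3 to 62.7. Neutrophil markers reached at most 1.49 in any library, with S100a9 and Ly6g at 0 reads and S100a8 the highest.

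**Figure D3:**
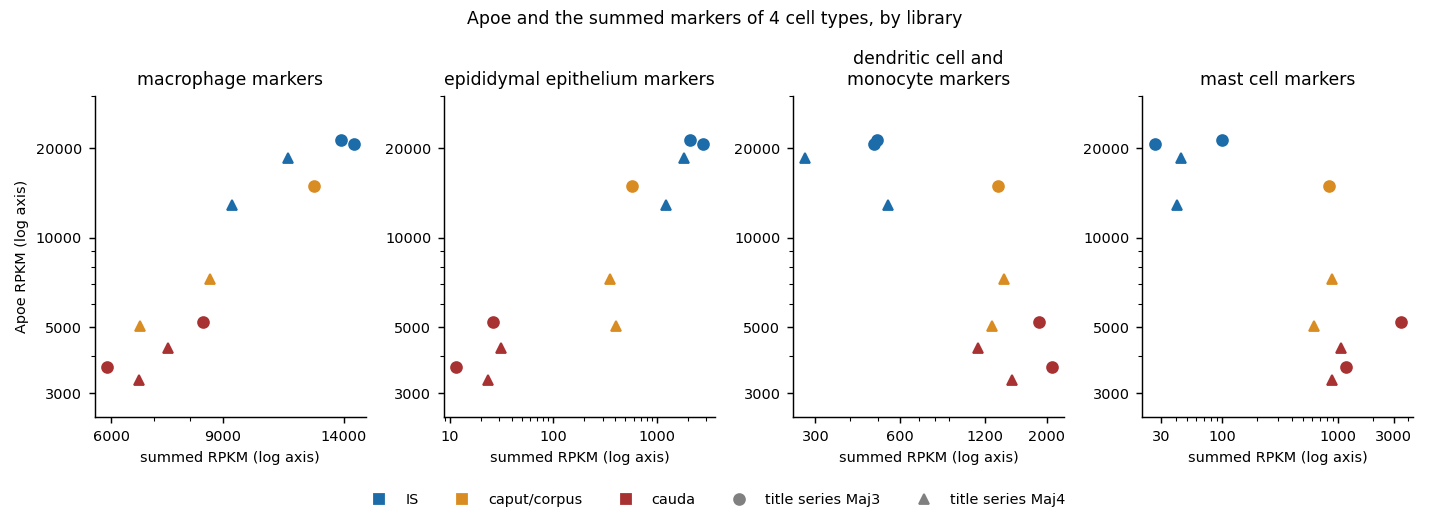
Apoe RPKM (vertical, log axis) is plotted against the summed RPKM of 4 marker lists (horizontal, log axes), 1 point per library, coloured by region and shaped by title series. The IS libraries sit at the top right for epithelium markers, with sums of 1224 to 2795. They sit at the top left for mast cell markers, with sums of 26.2 to 99.4. For macrophage markers they lie toward the top right, where caput/corpus replicate 1 (sum 12567, Apoe 14948) lies among them.

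Among the exporters, only Abca1 was called. Abca1 (ENSMUSG00000015243) moves cholesterol and phospholipid to apolipoproteins at the cell surface. Its RPKM was 42.0, 32.4, 114 and 71.4 in IS replicates 1 to 4. Caput/corpus libraries had 25.6, 46.5 and 44.1, and cauda libraries 9.23, 11.6, 42.7 and 29.3. Pooled over series the IS and cauda ranges overlap, since cauda replicate 3 exceeded IS replicates 1 and 2, but within each series both IS libraries lay above both cauda libraries. The ratio of means, IS over cauda, was 3.56 in Maj3 and 2.57 in Maj4. Abca1 was 2.98-fold higher in IS than in cauda (log2 1.58 ± 0.22, edgeR adjusted p = 0.00107), and 1.53 on the log2 scale over the 8 matching libraries (edgeR adjusted p = 0.00231). Without the series as a covariate the call was lost (1.48, edgeR adjusted p = 0.103), as with the counts as filed (1.12, edgeR adjusted p = 0.110). IS exceeded caput/corpus by 0.85 ± 0.24, not called (edgeR adjusted p = 0.0922) except without cauda replicate 1 (0.84, edgeR adjusted p = 0.0375) and over the 8 matching libraries (1.11, edgeR adjusted p = 0.0410) or with DESeq2 (0.88, adjusted p = 0.00485). Over the 8 libraries, caput/corpus keeps only those of Maj4. Caput/corpus minus cauda was 0.73 ± 0.23 (edgeR adjusted p = 0.241), and DESeq2 called it (0.75, adjusted p = 0.0464). Per summed macrophage marker, Abca1 was 0.00223 to 0.00996 in IS and 0.00139 to 0.00578 in cauda, with overlap when pooled over series. Within each series this ratio was higher in both IS libraries than in both cauda libraries. It was 0.00303 and 0.00223 against 0.00156 and 0.00139 in Maj3, and 0.00996 and 0.00767 against 0.00578 and 0.00443 in Maj4.

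Abcg1 (ENSMUSG00000024030), which exports cholesterol to mature lipoprotein particles, was set apart by title series more than by region. Its RPKM was 21.1 and 19.6 in the Maj3 IS libraries, 19.6 in caput/corpus and 17.8 and 14.9 in cauda. In Maj4 the IS libraries had 69.7 and 48.0, those of caput/corpus 54.1 and 46.8, and those of the cauda 43.9 and 43.6. The 2 series did not overlap in any region, whereas the regions overlapped throughout when pooled. Within each series both IS libraries lay above both cauda libraries, as for Abca1. IS minus cauda was 0.36 ± 0.13 and not called (edgeR adjusted p = 0.0805), with IS over cauda at 1.24 in Maj3 and 1.34 in Maj4. It crossed the threshold without cauda replicate 1 (0.43, edgeR adjusted p = 0.0457) and without IS replicate 4 (0.45, edgeR adjusted p = 0.0474), and with DESeq2 (0.41, adjusted p = 0.0183). The series is a name in the titles. In the count files, 27.6% to 35.8% of the reads of Maj3 were not uniquely aligned, against 12.5% to 14.7% in Maj4. The 35.8% is that of the file under IS replicate 2, which equals no RPKM column, and the other Maj3 files reached at most 28.5%. The column of cauda replicate 1 equals no count file and so has no such value. The part of this in the Abcg1 level was not tested.

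Abca7 (ENSMUSG00000035722), a relative of Abca1 linked to phagocytosis, ran from 7.48 to 18.6 RPKM in IS, from 11.0 to 24.6 in caput/corpus and from 6.53 to 27.0 in cauda. The regions overlapped, and IS minus cauda was -0.35 ± 0.27 (edgeR adjusted p = 0.433). Apoe and Abca1 stood above their cauda level in IS while Abcg1 and Abca7 did not pass the test there. Whether the exporters differ from each other in this contrast was not tested.

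Lpl (ENSMUSG00000015568) encodes lipoprotein lipase, which releases fatty acids from triglyceride-rich particles. Its RPKM was 34.0, 23.7, 31.0 and 68.2 in IS replicates 1 to 4. The caput/corpus levels were 52.8, 58.0 and 90.5, and the cauda levels 80.2, 86.2, 51.5 and 92.5. The lowest 3 of all libraries were IS replicates 1 to 3, and IS replicate 4 lay among the cauda values. Cauda was 2.07-fold higher than IS (log2 of IS minus cauda -1.05 ± 0.31, edgeR adjusted p = 0.0467). The ratio of cauda to IS means was 2.88 in Maj3 and 1.45 in Maj4, where the regions overlapped. The call is marginal. With 1 of the 11 libraries left out in turn, it held in 2 fits (without IS replicate 4, -1.39 with edgeR adjusted p = 0.00888, and without cauda replicate 3) and was lost in the other 9, where the edgeR adjusted p reached 0.139 without IS replicate 2 (-0.87). Over the 8 matching libraries it was -0.80 (edgeR adjusted p = 0.165). IS minus caput/corpus was -0.74 ± 0.33 (edgeR adjusted p = 0.327). Per summed macrophage marker, Lpl was 0.00163 to 0.00732 in IS and 0.00698 to 0.0140 in cauda, with overlap.

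Cd36 (ENSMUSG00000002944), a scavenger receptor that takes up oxidised lipoproteins and fatty acids, had the highest mean RPKM of the members after Apoe in each region, although in cauda its 79.3 ± 30.2 (SD, n = 4) lay within the spread of Lpl at 77.6 ± 18.1. It was 168, 165, 75.4 and 79.2 in IS replicates 1 to 4. Caput/corpus libraries had 137, 82.2 and 55.7, and cauda libraries 43.7, 114, 91.0 and 68.4. The highest 3 libraries were Maj3 libraries of IS and caput/corpus, and the regions overlapped. IS minus cauda was 0.49 ± 0.31 (edgeR adjusted p = 0.341), but the IS to cauda ratio of means was 2.11 in Maj3 and 0.971 in Maj4, where the regions overlapped.

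The fatty acid binding proteins, which ferry fatty acids within the cell, were scarce. Fabp5 (ENSMUSG00000027533) was 1.28, 1.52, 1.34 and 2.61 RPKM in IS. The caput/corpus levels were 2.69, 4.04 and 3.80, and the cauda levels 2.68, 3.61, 2.17 and 3.29, from 83 to 353 reads a library. Every caput/corpus library lay above every IS library, and the cauda libraries overlapped both. IS minus caput/corpus was not called (-1.02 ± 0.35, edgeR adjusted p = 0.166), nor was IS minus cauda (-0.83 ± 0.33, edgeR adjusted p = 0.115). Fabp4 (ENSMUSG00000062515), typical of adipocytes and endothelium, rested on 0 to 155 reads. It was 0.729, 1.14, 1.11 and 2.59 RPKM in IS. Caput/corpus libraries had 2.66, 3.42 and 6.57, and cauda libraries 0, 8.39, 0.638 and 0.760. Cauda replicate 2 alone set the cauda mean: IS minus cauda was -0.66 ± 1.43 with it (edgeR adjusted p = 0.807) and 2.21 without it, also not called. All 3 caput/corpus libraries lay above all 4 IS libraries, at a difference of -1.64 ± 1.36 (edgeR adjusted p = 0.711).

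Plin2 (ENSMUSG00000028494), which coats lipid droplets and rises with stored lipid, was 43.1, 43.3, 31.2 and 39.5 RPKM in IS. The caput/corpus levels were 46.9, 49.1 and 43.5, and the cauda levels 92.4, 64.3, 41.4 and 38.6. The 2 Maj3 cauda libraries stood above all others, which lay between 31.2 and 49.1, and the 2 Maj4 cauda libraries lay within that range. IS minus cauda was -0.54 ± 0.19 and not called (edgeR adjusted p = 0.0862), with cauda over IS at 1.81 in Maj3 and 1.13 in Maj4. In RefSeq, Plin2 overlaps the gene model Gm12551, and counting without strand cannot tell reads of overlapping genes apart.

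Gpnmb (ENSMUSG00000029816) is a lysosome-linked glycoprotein of lipid-loaded macrophages. It was 0.316, 10.3, 1.03 and 1.48 RPKM in IS replicates 1 to 4. Caput/corpus libraries had 3.96, 3.84 and 7.19, and cauda libraries 0.00745 (1 read), 0.589, 1.00 and 0.696. All caput/corpus libraries lay above all cauda libraries, and above every IS library but replicate 2. Caput/corpus minus cauda was 3.13 ± 1.25 and not called (edgeR adjusted p = 0.352). IS minus cauda was 2.48 ± 1.30 (edgeR adjusted p = 0.238) and 0.47 without IS replicate 2. IS replicate 2 and cauda replicate 1 are among the libraries whose sources conflict. Over the 8 libraries whose sources match, where caput/corpus keeps only those of Maj4, IS minus caput/corpus was -2.34 and called (edgeR adjusted p = 0.0207). With all 11 it was -0.65 (edgeR adjusted p = 0.931). IS replicate 2 also had the highest summed macrophage markers, 14514, of the 11 libraries. The same held for its fibroblast and smooth muscle markers, 256, epithelium markers, 2795, and endothelial markers, 16.0. The part of such cells in its Gpnmb level was not tested.

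Pooled over the title series, the members did not follow Apoe from library to library as a group. Over the 11 libraries, Pearson's r of log2 CPM (reads scaled to library size) with Apoe was 0.68 for Cd36, 0.50 for Abca1, 0.37 for Gpnmb, 0.15 for Fabp4, -0.06 for Abcg1, -0.37 for Abca7, -0.47 for Plin2, -0.72 for Fabp5 and -0.83 for Lpl. The 5 genes whose profile was most like that of Apoe, of 15106 others tested, were Lpcat2 (r = 0.992), an acyltransferase that remodels phospholipids, the tetraspanin Cd81 (0.989), the lysosomal protease Ctsd (0.988), the lipoprotein-associated lactonase Pon3 (0.987) and Cryba4, a lens crystallin gene (0.986). These correlations describe libraries that differ in region, series and library size, and the part of each in the correlations was not tested. Of the other members, only Abca1 ranked the libraries by RPKM in the same order as Apoe within each series. Lpcat2 had 246 ± 58.0 RPKM in the IS libraries (SD, n = 4), 57.1 ± 6.88 in those of the cauda (n = 4) and 117 ± 74.7 in those of caput/corpus (n = 3).

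Beyond the members, 140 genes of 8 lipid pathway lists were examined, of which 124 were tested. Between IS and cauda edgeR called 33 of them, or 26.6% against 16.5% of all genes, of which 17 pointed to IS and 16 to cauda. Their median log2 difference was 0.05, the same as the 0.05 of all genes. Over the 8 matching libraries it also called 33, of 125 tested, and with the counts as filed 0 of 124. Called genes were found in both directions in 4 lists, in 1 direction in 3 and not at all in 1. The lists were chosen with earlier results of these data known, so their shares of called genes are a description only.

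**Figure D4:**
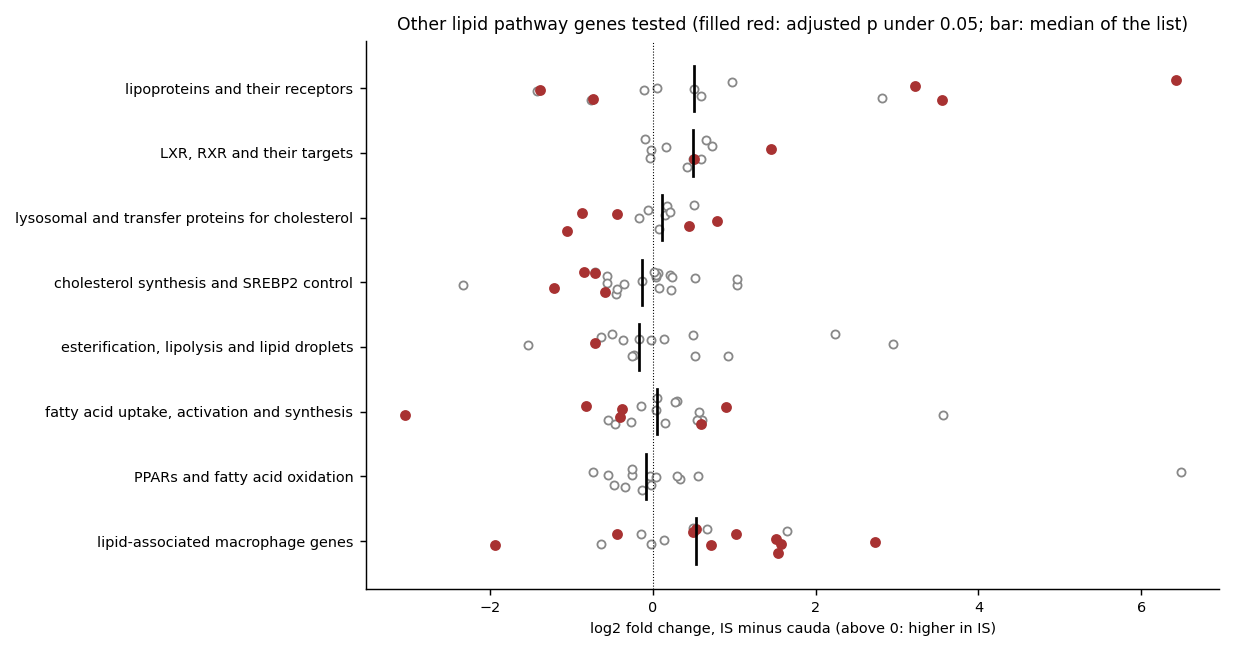
Each point is a tested gene of 1 of the 8 lipid lists, at its log2 fold change from cauda to IS (horizontal axis), filled red where the edgeR adjusted p was under 0.05, with a bar at the list's median. The called genes of the cholesterol synthesis list all lie left of 0, between -1.22 and -0.59, while 8 of the 10 called lipid-associated macrophage genes lie right of 0.

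Lipoproteins and their receptors had 5 of 13 tested genes called, 3 toward IS and 2 toward cauda, with a median of 0.50. Apoc1 and Apoc4, small apolipoproteins that exchange between lipoproteins, are the next genes beside Apoe on its chromosome in RefSeq. Apoc1 was 48.5 RPKM in IS, 23.8 in caput/corpus and 4.08 in cauda on average (log2 of IS minus cauda 3.55 ± 0.37, edgeR adjusted p = 0.000215), and it was also called from cauda to caput/corpus (2.56, edgeR adjusted p = 0.0123). Apoc4 was 85.0, 16.3 and 1.01 RPKM (6.42 ± 0.82, edgeR adjusted p = 0.000635), with the reservation that RefSeq places the gene model Gm44805 over it. Apod, a lipocalin that binds arachidonic acid and steroids, was 24.3 RPKM in IS and 2.57 in cauda (3.22 ± 0.70, edgeR adjusted p = 0.0115), and without IS replicate 2 it missed the threshold (2.61, edgeR adjusted p = 0.0507). Pltp, the phospholipid transfer protein, ran the other way, from 119 RPKM in IS to 313 in cauda (-1.39 ± 0.22, edgeR adjusted p = 0.00222).

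Of the LXR, RXR and target list, 2 of 11 were called, or 18.2%, close to the 16.5% of all genes, both higher in IS, with a median of 0.49. Mylip, a ubiquitin ligase that degrades the LDL receptor, was 54.9 RPKM in IS, 38.5 in caput/corpus and 20.3 in cauda (IS minus cauda 1.45 ± 0.15, edgeR adjusted p = 0.000196), and it was called from cauda to caput/corpus as well (0.91, edgeR adjusted p = 0.0304). Lpcat3, an acyltransferase that builds polyunsaturated phospholipids, was 24.7 and 17.6 RPKM (0.50 ± 0.14, edgeR adjusted p = 0.0305), a call that was lost when any of 5 libraries was left out (IS replicates 3 and 4, cauda replicates 2, 3 and 4), at 0.42 to 0.55. The receptors themselves, named here after their values were seen, were not called: Nr1h2 was 38.5 RPKM in IS and 38.8 in cauda (-0.02 ± 0.10, edgeR adjusted p = 0.916) and Nr1h3 2.19 and 1.31 (0.73 ± 0.86, edgeR adjusted p = 0.630).

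Cholesterol synthesis and its control had 4 of 23 genes called, or 17.4%, close to the 16.5% of all genes, with each of the 4 higher in cauda and a median of -0.13. Srebf2, the master switch of the pathway, was 28.2 RPKM in IS, 46.4 in caput/corpus and 64.2 in cauda (-1.22 ± 0.15, edgeR adjusted p = 0.000577), and it was called with each library left out. Enzymes of the list had lower levels and adjusted p-values nearer the threshold. Msmo1, a sterol demethylase, was 7.27 and 10.8 (-0.59 ± 0.15, edgeR adjusted p = 0.0211) and Fdps, which makes farnesyl diphosphate, 10.2 and 18.6 (-0.85 ± 0.24, edgeR adjusted p = 0.0335). Msmo1 was lost without IS replicate 1 or 3 or cauda replicate 4 (edgeR adjusted p up to 0.0688), and Fdps in 7 of the 11 fits, all but those without caput/corpus replicates 2 and 3 and cauda replicates 1 and 3 (up to 0.0996). In the remaining 19 genes of this list no difference was called.

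Lysosomal and transfer proteins for cholesterol had 5 of 12 genes called, 2 toward IS and 3 toward cauda, with a median of 0.11. Tspo, a cholesterol-binding protein of the outer mitochondrial membrane, was 97.7 RPKM in IS and 178 in cauda (-0.87 ± 0.16, edgeR adjusted p = 0.00437), and Gramd1a, which carries cholesterol from the plasma membrane to the endoplasmic reticulum, 68.4 and 39.5 (0.78 ± 0.17, edgeR adjusted p = 0.0122). Psap, the precursor of the saposins that help lysosomes break down sphingolipids, was 1139 and 1533 RPKM (-0.44 ± 0.11, edgeR adjusted p = 0.0220). Scarb2, a lysosomal membrane protein, was 57.5 and 42.1 (0.45 ± 0.13, edgeR adjusted p = 0.0359). Psap was lost without IS replicate 1, 3 or 4 or cauda replicate 2 or 4 (edgeR adjusted p up to 0.0759), and Scarb2 without any 1 IS library or cauda replicate 2 or 4 (up to 0.0987).

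The lipid droplet list had 1 of 15 called, Plin3, a droplet coat protein, which was higher in cauda, at 41.1 RPKM in IS and 67.6 in cauda (-0.71 ± 0.13, edgeR adjusted p = 0.00444), with a list median of -0.17. Fatty acid uptake, activation and synthesis had 6 of 19 called, 2 toward IS and 4 toward cauda, with a median of 0.05. Slc27a3, an acyl-CoA synthetase, was 1.48 RPKM in IS and 11.6 in cauda (-3.05 ± 0.57, edgeR adjusted p = 0.00518). The fatty acid elongase Elovl5 was 27.0 and 47.5 (-0.82 ± 0.10, edgeR adjusted p = 0.000536) and the desaturase Fads1 38.4 and 20.7 (0.90 ± 0.15, edgeR adjusted p = 0.00293). Lmf1, the chaperone that matures lipoprotein lipase, was 2.57 and 3.38 (-0.40 ± 0.12, edgeR adjusted p = 0.0402), and leaving out a single library, it was called in 3 of 11 fits, those without IS replicate 2, cauda replicate 1 or caput/corpus replicate 3. PPARs and fatty acid oxidation had 0 of 14 called by edgeR.

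Genes that mark lipid-associated macrophages in fat and plaque had 10 of 17 called, 8 toward IS and 2 toward cauda, with a median of 0.53, the highest of the 8 lists. Ctsd was 1662 RPKM in IS, 699 in caput/corpus and 244 in cauda (2.72 ± 0.29, edgeR adjusted p = 0.000256). The lysosomal protease Ctsl was 143 and 48.3 RPKM in IS and cauda (1.54 ± 0.20, edgeR adjusted p = 0.000615), and the late endosomal tetraspanin Cd63 281 and 92.8 (1.57 ± 0.25, edgeR adjusted p = 0.00187). Trem2, the lipid-sensing receptor of this program and named here after its values were seen, was 103 and 51.0 (1.02 ± 0.19, edgeR adjusted p = 0.00453). Lgals3, a galectin often used as a marker of the same cells, ran against them, at 135 RPKM in IS, 371 in caput/corpus and 525 in cauda (-1.95 ± 0.15, edgeR adjusted p = 6.43e-05). Macrophage markers were higher in IS as well, in 8 of 11, and their part in these counts was not tested.

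The other comparisons called fewer genes, in the pathway lists as over all genes. IS and caput/corpus differed in 7 of the 124, or 5.65% against 3.78% of all genes, 2 of them (Fads1 and Cd9) toward IS and 5 toward caput/corpus (Pltp, Tspo, Slc27a3, Spp1 and Lgals3), and in 11 of 125 over the 8 matching libraries. Caput/corpus and cauda differed in 2, Apoc1 and Mylip, or 1.61% against 0.615% of all genes, and in 1 over the matching libraries. Cd9 and Spp1 were named after their values were seen, to complete these counts.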

How the data were processed

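RNA of EGFP+ phagocytes sorted from 3 regions of the epididymis was sequenced in 11 libraries. Per the submitters' processing notes, STAR, HTSeq and edgeR (versions not given in the sources used here) and the build mm9 were used. The deposited count files hold whole read counts per Ensembl gene, made by the authors without strand, per the file names. The table of RPKM was deposited by the authors and scales reads by gene length and effective library size. Its values were multiplied by gene length and divided by the step of 1 read, which was estimated from the low values of each column. In this way 100% of the values came out as whole reads within a tolerance of 0.001, and these reads were tested. Of the 11 read sets, 8 equal the count file under the same name, 2 a file under another name and 1 (cauda replicate 1) none.

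The test was edgeR 4.0.16 (R 4.3.3; TMM, filterByExpr by region, title series as covariate, all 11 libraries in 1 fit), which left 15116 genes, with Benjamini-Hochberg adjustment over them in each comparison. It was tested on simulated data. Alternatives were DESeq2 1.42.0, limma 3.58.1 on log2(RPKM + 1), no filter, no covariate, a replicate block, the counts as filed, the 8 libraries whose sources match, each series alone and each library left out.

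The members and the 19 lists of 263 genes (261 found, by Ensembl identifier or symbol) were chosen with earlier results of these data known. Named were all members, up to 4 called genes per pathway list by smallest p in IS minus cauda, the most abundant gene per cell type list and the 5 genes most correlated with Apoe. Of the genes this rule names, 1 is not reported here. Promoter windows are from RefSeq, GRCm38.p6. Depth limits Fabp4, Gpnmb and Fabp5, with as few as 0, 1 and 83 reads in a library, and without molecular identifiers reads are not independent molecules.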

Additional observations from a re-analysis of the deposited data

Results flagged for a closer look

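Among the 20 groups of 4 libraries, 2 held a library far from the others, where chance alone flags about 1 group in 20. Gpnmb stood at 10.31 RPKM in IS replicate 2, with the other 3 IS libraries between 0.316 and 1.48, a gap of 0.883 of the group's range. Fabp4 stood at 8.387 RPKM in cauda replicate 2, with the other 3 cauda libraries between 0 and 0.760, a gap of 0.909 of the range. Beside these values, IS replicate 2 had the highest summed macrophage (14514 RPKM), epithelium (2795), fibroblast and smooth muscle (256) and endothelial markers (16.0) of the IS libraries. It was also the highest of them in lymphocyte markers (68.7) and genes induced by tissue dissociation (6944). Cauda replicate 2 had the highest summed macrophage (8383 RPKM), mast cell (3473), lymphocyte (62.7), endothelial (6.73), adipocyte (1.35) and neutrophil markers (0.616) of the cauda libraries. For the other marker lists another library of the region was highest. The part of these marker levels in the results was not tested.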

How the results depend on the processing

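Apoe and Abca1 kept their direction and call between IS and cauda with each library left out, and Lpl kept its direction. With 1 library left out, edgeR called 1641 to 3124 genes between IS and cauda (members 2 to 4), 234 to 1353 between IS and caput/corpus (members 0 to 2) and 29 to 205 between caput/corpus and cauda (members 0 in each). Against 2488, only the fit without IS replicate 3 (1641) moved the first count by over 1.5 times. Against 571, the second was 280 without IS replicate 1, 244 without IS replicate 3, 374 without IS replicate 4, 234 and 269 without caput/corpus replicates 2 and 3, and 1353 without cauda replicate 1. Against 93, the third was 58 without IS replicate 1, IS replicate 3 or caput/corpus replicate 3, 55 without IS replicate 4, 29 without caput/corpus replicate 1, 49 without cauda replicate 4 and 205 without cauda replicate 1.

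In the order IS minus cauda, IS minus caput/corpus and caput/corpus minus cauda, the counts as filed gave 4, 0 and 0 genes with edgeR (3098, 1166 and 992 at an unadjusted p under 0.05) and 0 members. Maj3 alone gave 30, 0 and 5 genes (2036, 404 and 749 unadjusted) and 0 members. Maj4 alone gave 1144 genes for the first, 28 for the third and 2 members for the second. The 8 matching libraries gave 954 genes and 3 members (Apoe, Abca1, Gpnmb) for the second and 52 genes for the third. Without the title series the first gave 1481 genes and 1 member, and the second 233 genes. DESeq2 gave 1268 genes and 1 member for the second and 632 and 1 for the third, limma on log2(RPKM + 1) 934 and 143 genes, and no filter 1 member in each and 184 genes for the third. The cause of these moves was not tested.

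The replicate block, which takes the number in the title within each series as a pair, gave 2362, 398 and 41 genes, and 1 member (Apoe, adjusted p = 0.0476) between IS and caput/corpus; under it Fabp4 turned to 0.57 between IS and cauda. The labels do not say that numbers mark shared animals. Differences between numbers 1 and 2 correlated over 15116 genes at 0.12 between IS and cauda in Maj3 and at 0.02, -0.01 and -0.04 between the regions of Maj4, so no pairing was assumed.

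The log2 differences that reversed were ones that the fit of all 11 libraries did not call. With the counts as filed, IS minus cauda was -0.30 for Gpnmb, -0.0005 for Cd36 and 0.10 for Plin2, IS minus caput/corpus was 0.23 for Abca7, 0.042 for Lpl, -0.036 for Cd36 and 0.039 for Plin2, and caput/corpus minus cauda was 0.062 for Plin2. Maj4 alone gave -0.039 for Cd36 and 1.39 for Fabp4 in the first, 0.0020 for Abca7 in the second, and 0.056 for Lpl, -0.20 for Cd36 and 0.22 for Plin2 in the third. Maj3 alone gave 0.40 for Gpnmb in the second and 0.27 for Abca7, -0.59 for Fabp4 and -0.15 for Fabp5 in the third. The 8 matching libraries gave 0.024 for Abca7 in the second and -0.11 for Cd36 and 0.15 for Plin2 in the third. Without the title series Abcg1 was -0.029 in the second, and with limma Fabp4 was 0.0115 in the first. With 1 library left out, Fabp4 ranged from -1.25 to 2.21 in the first, Abca7 from -0.41 to 0.092 in the second and from -0.44 to 0.090 in the third, and in the third Cd36 ranged from -0.056 to 0.45, Plin2 from -0.33 to 0.033 and Fabp5 from -0.023 to 0.34.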

Other observations

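The count file deposited under IS replicate 2 equals no RPKM column and entered no comparison here but the one with counts as filed. In CPM, scaled to its own reads, it held 17436 for Apoe, 222 for Abca1, 57.2 for Abcg1, 68.6 for Abca7, 512 for Lpl, 6.68 for Gpnmb, 301 for Cd36, 289 for Plin2, 0.527 for Fabp4 and 13.2 for Fabp5. The column of the same name held 56621 for Apoe, 326 for Abca1, 164 for Lpl, 47.5 for Gpnmb and 148 for Plin2. The column named cauda replicate 1, which equals no count file, held 9944 for Apoe, 91.3 for Abca1, 544 for Lpl and 310.0 for Plin2, on 13434 genes with a read.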
